A study of Mus musculus with 14 samples.

Results

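The 10 pan-endothelial genes described here were Pecam1, Kdr, Flt1, Flt4, Tek, Tie1, Emcn, Eng, Erg and Esam. They were chosen by symbol from the 53465 genes of a count table of mouse embryonic tissue, each symbol matched 1 row, and all 10 passed the low-count filter in every comparison below. They are protein-coding genes, with Kdr and Flt1 on chromosome 5, Flt4 and Pecam1 on chromosome 11, Tek and Tie1 on chromosome 4, Emcn on 3, Eng on 2, Erg on 16 and Esam on 9, and exons of 2867 bases (Esam) to 13504 bases (Flt1) in the GRCm38 annotation. PolyA RNA-seq had been done on 14 libraries from wild-type C57BL/6 embryos, with no treatment and no altered allele in any group. The aorta-gonad-mesonephros region (AGM) gave 6 libraries, in 2 sequencing rounds each labelled E9.5, E10.5 and E11.5. For labelled E9.5 the tissue field names the embryo's caudal portion including the PsP, an abbreviation that the labels do not spell out. Dorsal skin gave 8 libraries, 4 titled ES and 4 titled E, each set with 1 library at each of 4 ages, E9.5 and E10.5 and then E12.5 and E14.5. The 2 skin sets carry different sequencing project numbers, and the labels do not spell out the letters ES. Nothing in the labels says whether libraries came from separate embryos or from pools, so p-values measure the spread between these libraries, which may be technical.

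Endothelial cells line every blood and lymphatic vessel and are told from other cells by a shared set of receptors, adhesion proteins and transcription factors. Vascular endothelial growth factors act through the receptor tyrosine kinases encoded by Kdr, Flt1 and Flt4, and angiopoietins act through Tek with its partner Tie1. Pecam1, Esam and Emcn encode cell surface proteins of endothelium, Eng a co-receptor for TGF-β family ligands, and Erg an ETS family transcription factor that keeps endothelial genes active. In the AGM the wall of the dorsal aorta also gives rise to the first definitive blood stem cells, and in the skin a vessel plexus forms and is remodelled as the dermis grows.

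Promoter windows of 250 bases before and 50 bases after the transcription start were available from RefSeq (build GRCm38.p6) for 8 of the 10 members, and those of Pecam1 and Esam were not used here. The 4 shown belong to the members whose levels differed most in kind between the skin sets. Flt1 was higher in ES skin, Kdr was lower but still read there, and Tie1 and Emcn were close to 0. Each is written 5′ to 3′ on the gene's own strand, and capitals mark GGAA, the core of ETS binding motifs, or its reverse complement TTCC. Kdr lies at chr5:75978406-75978705 on the minus strand, Flt1 at chr5:147725962-147726261 on the minus strand, Tie1 at chr4:118489800-118490099 on the minus strand, and Emcn at chr3:137340828-137341127 on the plus strand.
Flt1: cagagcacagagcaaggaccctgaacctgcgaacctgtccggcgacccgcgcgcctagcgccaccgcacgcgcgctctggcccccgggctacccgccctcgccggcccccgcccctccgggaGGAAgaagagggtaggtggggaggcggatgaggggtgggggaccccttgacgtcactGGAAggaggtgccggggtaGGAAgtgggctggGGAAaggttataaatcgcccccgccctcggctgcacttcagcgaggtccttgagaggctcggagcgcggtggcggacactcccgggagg
Kdr: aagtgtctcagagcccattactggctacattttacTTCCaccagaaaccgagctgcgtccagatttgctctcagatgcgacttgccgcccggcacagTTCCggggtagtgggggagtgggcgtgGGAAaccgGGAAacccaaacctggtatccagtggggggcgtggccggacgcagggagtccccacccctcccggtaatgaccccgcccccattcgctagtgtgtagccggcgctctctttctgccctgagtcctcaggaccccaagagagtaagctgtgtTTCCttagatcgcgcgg
Tie1: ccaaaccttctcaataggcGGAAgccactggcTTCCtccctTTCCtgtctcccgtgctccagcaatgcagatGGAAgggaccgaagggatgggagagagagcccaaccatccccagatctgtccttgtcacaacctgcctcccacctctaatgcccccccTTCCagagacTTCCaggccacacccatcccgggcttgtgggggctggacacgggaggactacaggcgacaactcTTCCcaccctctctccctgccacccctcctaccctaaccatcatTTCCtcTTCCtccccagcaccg
Emcn: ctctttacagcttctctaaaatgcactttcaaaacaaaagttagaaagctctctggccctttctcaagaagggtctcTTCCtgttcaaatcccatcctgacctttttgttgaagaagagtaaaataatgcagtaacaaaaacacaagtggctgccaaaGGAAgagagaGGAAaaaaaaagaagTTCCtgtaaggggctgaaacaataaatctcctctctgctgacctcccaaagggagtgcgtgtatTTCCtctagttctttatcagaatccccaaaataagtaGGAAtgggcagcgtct

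The Flt1 window held 4 matches to GGAA, that of Kdr 5, that of Tie1 9 and that of Emcn 6, counted on both strands. This motif was present in 96% of 32851 RefSeq mouse windows of the same length, with a median of 3 matches, and in the windows of all 8 members, so its presence was no mark of the members. The longer forms CAGGAAG and CCGGAAG, which contain GGAA, were in 13.3% and 8.86% of all windows. CAGGAAG was found for 2 of the 8 members, Emcn and 1 of the 3 windows of Erg, and CCGGAAG for none. The motif of GATA factors, searched as AGATAA, was in 11.2% of all windows and in those of Tek and Erg. That of SOX factors, searched as AACAAT, was in 10.7% of all windows and in those of Tek, Emcn and Erg. TATAAA was in 13.6% of all windows and in those of Flt1 and Erg. Matches are letters in a window and say nothing of binding.

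Total counts were 21527400 to 29534551 in the AGM libraries, 6770338 to 15440012 in ES skin and 19929352 to 24003912 in E skin. Genes of known timing ran the other way in the AGM than their labels say. Levels are given as CPM, a gene's counts scaled to a common library total. Lin28a, an early embryonic regulator, had 22.99, 121 and 571 CPM at labelled E9.5, E10.5 and E11.5 in round 1 and 40.8, 129 and 496 CPM in round 2, whereas in E skin it had 0.67 CPM at E12.5 and 366 CPM at E9.5. Hbb-bt, a globin gene that comes on later, had 139, 35.5 and 3.42 CPM at the same labels in round 1, and Tbx6, a tailbud gene, had 1.12, 0.86 and 21.8 CPM. These genes were chosen after their values were seen, the libraries are called by their labelled ages throughout, and each AGM direction below holds only for those labels. Apart from this, ES skin had almost no globin, and its summed keratinocyte and cell cycle markers were lower than in E skin. The sum of 8 mesenchyme and fibroblast markers was 9531 to 13003.5 CPM in ES skin, within the 1082 to 30680.1 CPM of E skin. The summed level of 11 red cell markers was 0.295 to 0.567 CPM in ES skin and 2360.3 to 8611 CPM in E skin, and that of 7 cell cycle genes was 193 to 269 CPM in ES skin and 1889 to 3438 CPM in E skin. The 2 skin sets were therefore never pooled in the main tests, and AGM and skin libraries share no sequencing project, so tissue and project cannot be told apart.

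In AGM and E skin every member was read in every library, and levels compared per kilobase of exon put Kdr and Flt1 at opposite ends among the VEGF receptors. As RPKM, the CPM per kilobase of exon, the median was 12.04 RPKM for Kdr, 10.3 RPKM for Tie1 and 9.55 RPKM for Eng over the 6 AGM libraries. It was 2.47 RPKM for Flt1, the lowest of the members there. That place depends on the exon length of Flt1, 13504 bases over all annotated exons, the longest of the members. In CPM its AGM median, 33.4 CPM, lay above those of Tek, Emcn, Esam and Erg. Medians in E skin were 13.2 RPKM for Kdr, 13.1 RPKM for Eng and 10.2 RPKM for Pecam1, and again lowest for Flt1 at 3.01 RPKM. In ES skin Flt1 changed ends and was at the top, with a median of 6.63 RPKM, followed by Eng with 4.55 RPKM, Kdr with 1.561 RPKM and Flt4 with 1.553 RPKM. Emcn was at the bottom there with 0.010 RPKM, and Eng and Esam kept the places they had in E skin, ranks 2 and 6. Neighbours in these orders mostly overlapped in range. In the AGM, Tie1 had 7.55 to 14.4 RPKM and Kdr 10.6 to 13.7 RPKM, while in ES skin Flt1 with 5.61 to 6.85 RPKM lay above the highest value of Eng, 5.22 RPKM. The summed level of the members was 376 to 466 CPM in the AGM, 132 to 151 CPM in ES skin and 359 to 682 CPM in E skin. In whole tissue, fewer endothelial cells and less RNA per endothelial cell cannot be told apart.

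**Figure D1:**
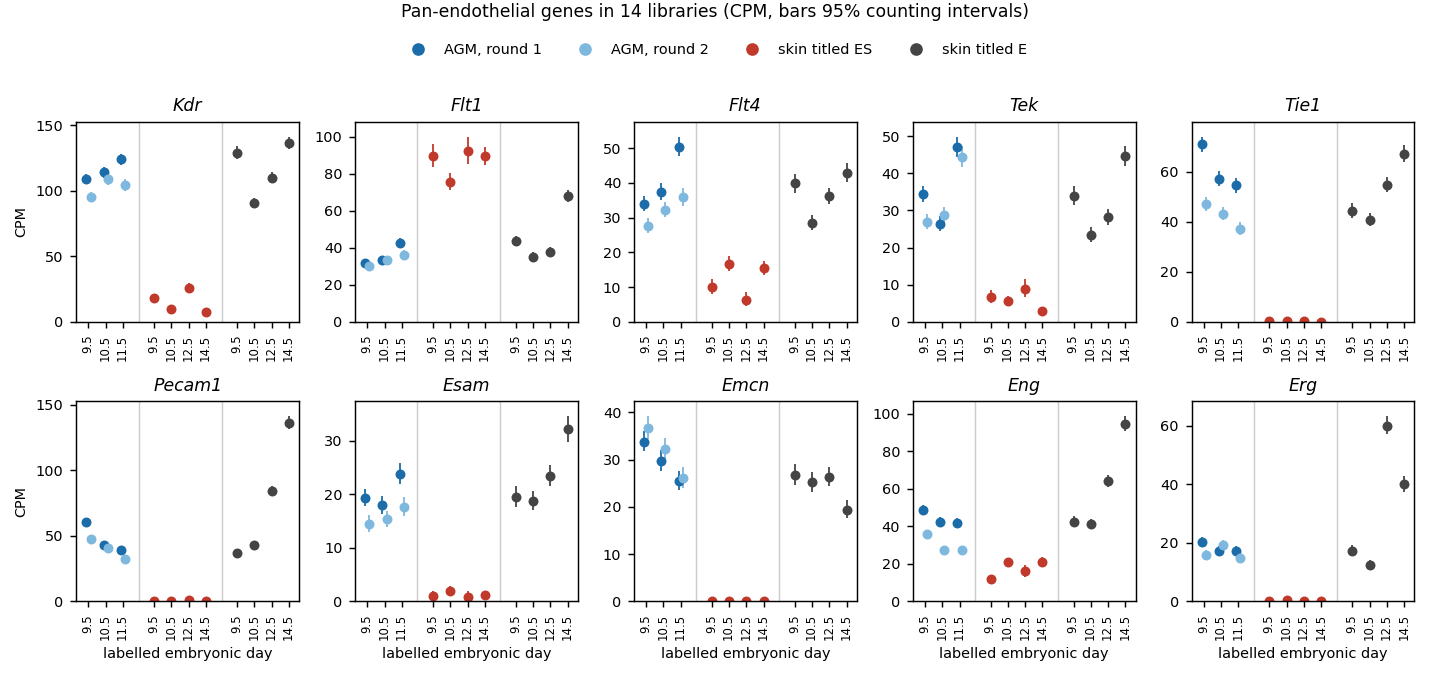
CPM (counts scaled to a common library total, vertical axis from 0) of each member in the 14 libraries against labelled embryonic day, with AGM in blue (2 rounds), skin titled ES in red and skin titled E in dark grey, bars giving 95% Poisson counting intervals. Flt1 lies at 75.7 to 92.5 CPM in ES skin, above all other libraries, while Pecam1, Tie1, Emcn and Erg lie under 1 CPM there.

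With labelled age in the AGM, the members did not move as one. Between labelled E10.5 and E9.5 no member passed edgeR's quasi-likelihood test with Benjamini-Hochberg adjustment over 17613 genes, where 0.874% of all genes were higher and 1.72% lower. None had an unadjusted p under 0.05 in that comparison, and DESeq2 and limma-voom called none either. Between labelled E11.5 and E10.5 only Tek passed, and it was higher, against 11.8% of genes higher and 15.4% lower. Between labelled E11.5 and E9.5, 3 members were higher (Flt1, Flt4 and Tek) and 2 lower (Pecam1 and Emcn), where 21.1% of genes were higher and 24% lower. The share of members called was thus close to that of all genes, and the median log2 change of the members was 0.14 beside -0.0039 for all genes.

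In E skin most log2 changes after E10.5 were above 0, and the 5 calls made were all higher. Each skin age is a single library, so these tests assume that skin libraries vary as the AGM pairs do. Between E10.5 and E9.5 no member passed edgeR's test over 19945 genes, of which 4.64% were higher and 1.79% lower, though 2 members had an unadjusted p under 0.05. DESeq2 and limma-voom called none there. Between E12.5 and E10.5 all 10 log2 changes were above 0 and 2 members passed, Pecam1 and Erg, both higher, where 17.4% of genes were higher and 12.7% lower. Between E14.5 and E12.5 Pecam1, Flt1 and Tek passed, all higher, where 14.3% of genes were higher and 13.2% lower. The median log2 change of the members was -0.22, 0.28 and 0.51 over the 3 steps, beside -0.00087, 0 and 0.019 for all genes. Markers of other cells moved further in the same steps. Of 8 mesenchyme and fibroblast markers, 8 were higher at E12.5 than E10.5 with a median log2 change of 3.03, and 6 were higher and 2 lower at E14.5 than E12.5 with a median of 1.68. Their summed level was 1362, 1082, 10009 and 30680.1 CPM over the 4 ages. Of 8 mural cell markers, which mark the cells that wrap vessels, 5 were higher with a median of 1.53 and then 3 with a median of 0.74, and they summed to 321, 336, 749 and 814 CPM. Their part in the members' changes was not tested. A straight line through the 4 E skin ages, whose spread comes from the skin libraries, called no member by edgeR, where 0.0236% of 16929 genes rose and 0% fell. In that test 4 members had an unadjusted p under 0.05, DESeq2 called Pecam1 and Eng, and limma-voom called none.

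AGM rounds shift genes together, and a term for round narrowed the spread. With it, edgeR called 3 members between labelled E10.5 and E9.5, where 24.1% of all genes were called in either direction. It called 4 members between labelled E11.5 and E10.5, where 48.2% of all genes were called, and 8 between labelled E11.5 and E9.5, where 61.7% were. In the fit with E skin, the term gave 3 members at E10.5 over E9.5, beside 19.4% of all genes, and 5 at E12.5 over E10.5, beside 48%. At E14.5 over E12.5 it gave 9 members, beside 45.2% of all genes. Except in that last step, the share of members called was not far from that of all genes, and is no result about these genes as a group. It gives no skin library a replicate.

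**Figure D2:**
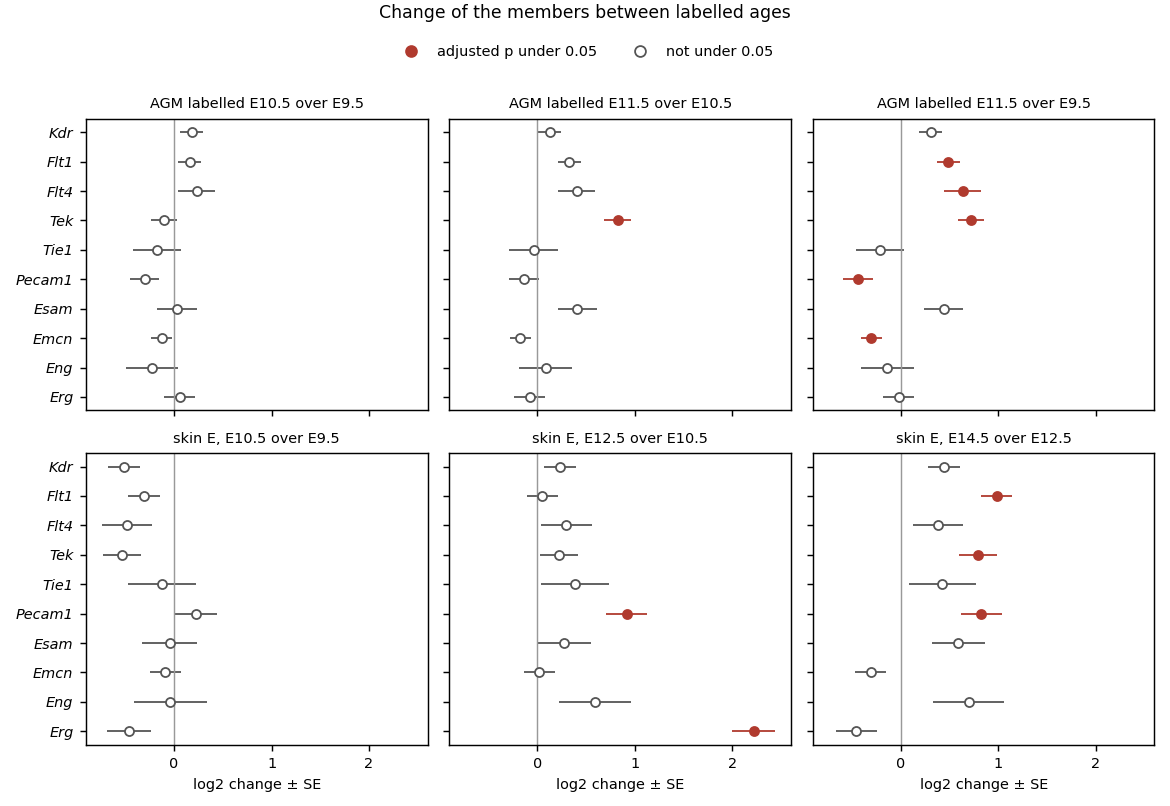
Log2 change (horizontal axis, bars ± SE from edgeR) of each member between labelled ages in the AGM (top row) and in E skin (bottom row), the later label over the earlier, with filled points where the adjusted p was under 0.05. Tek stands out at labelled E11.5 in the AGM, and Erg at 2.22 in skin at E12.5 over E10.5.

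Among the VEGF receptors, Flt1 and Flt4 were higher at labelled E11.5 than at labelled E9.5 in the AGM, and Flt1 was higher in the last skin sample. Kdr, the main signalling receptor for VEGF-A, had 109, 114 and 124 CPM at labelled E9.5, E10.5 and E11.5 in round 1 of the AGM and 95.4, 109 and 104 CPM in round 2. In E skin it had 129, 90.6, 110.0 and 136 CPM over the 4 ages in order. No Kdr change between ages of a tissue passed edgeR's test. The closest of these was 0.31 ± 0.12 (log2 change ± SE) between AGM labelled E11.5 and E9.5, at an adjusted p of 0.0664. In the fit with the block, this Kdr change passed with an adjusted p of 0.000492. The block also called Kdr at 0.18 between labelled E10.5 and E9.5, at an adjusted p of 0.0358. For skin it called Kdr lower at E10.5 than E9.5 (-0.51, 0.000458) and higher over the next 2 steps (0.23, 0.0178 and 0.44, 0.000297), each as log2 change and adjusted p.

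Flt1 encodes a receptor that binds VEGF-A tightly and, also as a soluble form, limits signalling through Kdr. It had 32.0, 33.5 and 42.6 CPM at labelled E9.5, E10.5 and E11.5 in round 1 and 30.2, 33.4 and 36.1 CPM in round 2. Both libraries labelled E11.5 lay above all 4 others. The log2 change between labelled E11.5 and E9.5 was 0.49 ± 0.12 with an adjusted p of 0.0116, and it missed the threshold without the round 1 library labelled E11.5 (0.35, adjusted p = 0.0831) or the round 2 library labelled E9.5 (0.45, 0.0611). In E skin Flt1 had 43.6, 35.1, 37.7 and 67.9 CPM at the 4 ages in order, and the change between E14.5 and E12.5 was 0.98 ± 0.16 with an adjusted p of 0.00283. In the blocked fit Flt1 was also called between AGM labelled E11.5 and E10.5, at 0.32 with an adjusted p of 0.00453.

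Flt4, the receptor for VEGF-C and VEGF-D that is best known in lymphatic vessels, had 34.0, 37.4 and 50.4 CPM at labelled E9.5, E10.5 and E11.5 in round 1 and 27.7, 32.3 and 35.9 CPM in round 2. It was higher at labelled E11.5 than E9.5 in each round, but the 2 groups' values came close, with 35.9 CPM at the lowest in the libraries labelled E11.5 and 34.0 CPM at the highest in those labelled E9.5. The log2 change was 0.63 ± 0.19 with an adjusted p of 0.0256. The call was lost without the round 1 library labelled E11.5 (0.35, adjusted p = 0.168) or the round 2 library labelled E9.5 (0.49, 0.127). In E skin Flt4 had 39.8, 28.5, 36.2 and 43.0 CPM and no step passed. In the blocked fit Flt4 was called between AGM labelled E11.5 and E10.5 (0.39, adjusted p = 0.0017), lower in skin at E10.5 than E9.5 (-0.48, 0.0267) and higher at E14.5 than E12.5 (0.38, 0.0332).

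Of the angiopoietin receptor pair, Tek moved and Tie1 did not pass. Tek, which encodes the receptor for the angiopoietins, had 34.4, 26.4 and 47.1 CPM at labelled E9.5, E10.5 and E11.5 in round 1 and 27.0, 28.7 and 44.4 CPM in round 2. Both libraries labelled E11.5 lay above the other 4. The log2 change was 0.82 ± 0.14 against labelled E10.5 (adjusted p = 0.0036) and 0.72 ± 0.14 against labelled E9.5 (0.00347), and both held whichever AGM library was left out. In E skin Tek had 33.9, 23.4, 28.2 and 44.5 CPM at the 4 ages, and the last step was 0.79 ± 0.19 with an adjusted p of 0.0169. The block for round also called Tek lower in skin at E10.5 than at E9.5, by -0.54 with an adjusted p of 0.0384.

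Tie1, the partner receptor without a well established ligand of its own, had 70.9, 57.2 and 54.6 CPM in round 1 and 46.9, 43.3 and 37.1 CPM in round 2 of the AGM in the order of the labels. Every round 1 library lay above every round 2 library, and the labelled ages overlapped. The log2 change between labelled E11.5 and E9.5 was -0.21 ± 0.25, and was called only with round as a block (adjusted p = 0.0148). In E skin Tie1 had 44.5, 40.7, 54.9 and 67.2 CPM, with the last 2 steps called only under the block (0.38, adjusted p = 0.0187 and 0.42, 0.0103). The ratio of Tek to Tie1 CPM was 0.486, 0.461 and 0.863 at labelled E9.5, E10.5 and E11.5 in round 1 and 0.575, 0.664 and 1.196 in round 2.

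Pecam1 was lower at later labels in the AGM and higher at later ages in E skin, over unlike ranges of age. Over the interval that both tissues share, E9.5 to E10.5, their steps were not shown to differ (log2 difference -0.52 ± 0.26). Pecam1 encodes PECAM-1 (CD31), an adhesion protein of endothelial junctions that platelets and leukocytes carry too. In the AGM it had 60.5, 43.2 and 39.6 CPM at labelled E9.5, E10.5 and E11.5 in round 1 and 47.5, 41.1 and 32.1 CPM in round 2. The libraries labelled E11.5 lay below those labelled E9.5, at -0.44 ± 0.15 with an adjusted p of 0.0454. This call was lost under 1 other scaling and without any of 4 of the 6 AGM libraries, down to -0.26 with an adjusted p of 0.279 without the round 1 library labelled E9.5. With round as a block its adjusted p was 0.000232, and labelled E10.5 over E9.5 was called as well (-0.29, 0.0132).

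In E skin Pecam1 had 36.9, 43.1, 84.3 and 136 CPM over the 4 ages in order, higher in each sample than in the one before. The level at E14.5 was 3.70 times that at E9.5. The log2 change was 0.92 ± 0.21 between E12.5 and E10.5 (adjusted p = 0.0123) and 0.83 ± 0.21 between E14.5 and E12.5 (0.0186), by edgeR with Benjamini-Hochberg adjustment. As a line the slope was 0.41 ± 0.04 log2 units per day, with an adjusted p of 0.059 by edgeR, 6.61e-09 by DESeq2 and 0.0307 by edgeR with no filter on low counts. The ratio of Pecam1 to Kdr CPM was 0.286, 0.476, 0.766 and 1.001 over the 4 skin ages, and 0.320 and 0.308 in the 2 AGM libraries labelled E11.5, against 0.556 and 0.498 in those labelled E9.5. Macrophage markers, of which 9 were listed, moved the same way. Their summed level was 6.97, 28.5, 156 and 263 CPM over the skin ages, and 7.09 and 8.55 CPM in the AGM labelled E11.5 against 154 and 139 CPM at labelled E9.5. Summed haematopoietic, mural cell and mesenchyme markers were also higher in E skin at E14.5 than E9.5. All were lower in the AGM at labelled E11.5 than at labelled E9.5. In ES skin macrophage markers summed to 163 to 442 CPM, while Pecam1 had 0.389 to 0.739 CPM. The part of these cells in the Pecam1 result was not tested.

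**Figure D3:**
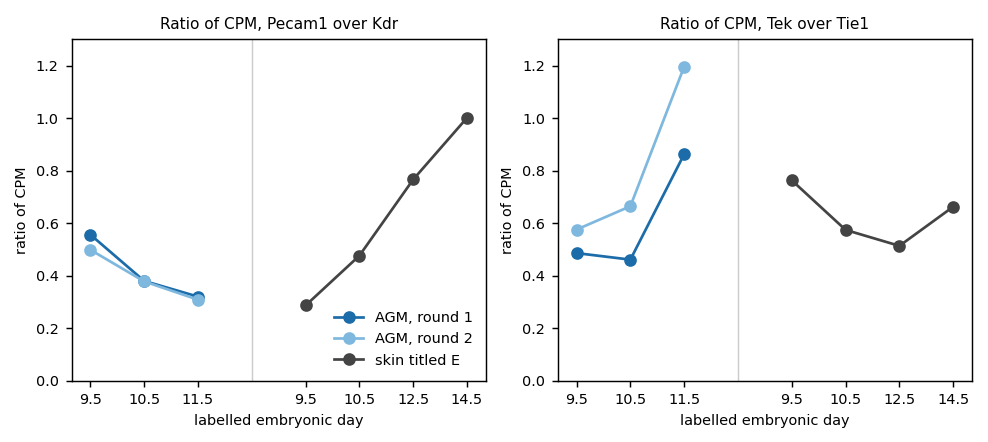
Ratio of CPM (vertical axis, from 0) of Pecam1 over Kdr (left) and of Tek over Tie1 (right) in each AGM and E skin library against labelled embryonic day. Pecam1 over Kdr climbs from E9.5 to E14.5 in E skin and runs down with labelled age in both AGM rounds, while Tek over Tie1 is highest in both rounds at labelled E11.5.

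Esam, a junctional adhesion protein, had 19.3, 18.0 and 23.8 CPM in round 1 of the AGM and 14.51, 15.3 and 17.6 CPM in round 2, in the order of the labels, and the ages overlapped. In E skin it had 19.4, 18.8, 23.4 and 32.1 CPM. No step passed in the main test. Under the block, Esam was called higher at AGM labelled E11.5 than E10.5 (0.40, adjusted p = 0.00521) and E9.5 (0.44, 0.00183), and higher in skin at E14.5 than E12.5 (0.59, 0.0036).

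Emcn encodes endomucin, a sialoglycoprotein most abundant on venous and capillary endothelium. In the AGM it had 33.8, 29.8 and 25.5 CPM at labelled E9.5, E10.5 and E11.5 in round 1 and 36.7, 32.3 and 26.1 CPM in round 2, so that the 3 labelled ages did not overlap. The log2 change between labelled E11.5 and E9.5 was -0.30 ± 0.11, with an adjusted p of 0.0496 on the edge of the threshold. It lost its call under 5 other scalings, filters and tools, with adjusted p of 0.0504 to 0.101, and in each of the 6 fits with an AGM library left out, with 0.0794 to 0.2. With round as a block its adjusted p was 0.00416. In E skin Emcn had 26.8, 25.2, 26.4 and 19.4 CPM, and no step passed.

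Eng encodes endoglin, the co-receptor that presents BMP9 and related ligands to the kinase encoded by Acvrl1. The gene overlaps Fpgs on the opposite strand, which had 9138 counts over the 14 libraries, and since the counting is not stated to use strand, the level of Eng is uncertain. In the AGM Eng had 48.6, 42.1 and 41.7 CPM in round 1 and 35.7, 27.1 and 27.3 CPM in round 2, and the difference between rounds was larger than that between labelled ages. In E skin it had 42.3, 41.1, 63.9 and 94.5 CPM, 2.24 times as much at E14.5 as at E9.5. No step passed in the main test. Under the block, the skin steps of 0.59 and 0.69 after E10.5 were called (adjusted p = 0.0019 and 0.000532), as was the AGM step to labelled E10.5 (-0.24, 0.0398). With no filter on low counts, Eng was called in both skin steps after E10.5 (0.62, adjusted p = 0.00761 and 0.64, 0.00484). DESeq2 called the skin slope of 0.26 log2 units per day, with an adjusted p of 0.00383, and edgeR gave 0.0769.

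Erg, the transcription factor of the set, was nearly level in the AGM and peaked in E skin at E12.5. It had 20.3, 17.1 and 17.2 CPM in round 1 of the AGM and 15.9, 19.1 and 15 CPM in round 2. In E skin it had 17.2, 12.46, 60.03 and 39.98 CPM at the 4 ages, and E12.5 and E14.5 both lay above all other libraries. The change between E12.5 and E10.5 was 2.22 ± 0.22 with an adjusted p of 0.000253, the largest change with age of any member. The lower level at E14.5 than at E12.5 (-0.46 ± 0.21, adjusted p = 0.146) passed only with round as a block (0.0307). Erg is also expressed in developing cartilage and joints. All 6 cartilage markers were called higher between E12.5 and E10.5, where 17.4% of all genes were higher. All 6 were called lower between E14.5 and E12.5, where 13.2% of all genes were lower. Their summed level was 479, 608, 1987 and 92.8 CPM over the 4 skin ages. In the AGM, where Erg was nearly level, it was 1624, 1030 and 307 CPM in round 1 in the order of the labels. In round 2 it was 1218, 812 and 285 CPM. The part of cartilage in the Erg result was not tested.

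Set against E skin of the same labelled age, few members passed in the AGM. Their log2 changes ran from -0.54 to 0.50 at E9.5 and from -0.23 to 0.55 at E10.5. Likeness of the tissues was not tested. At E9.5 only Flt1 passed edgeR's test, lower in the AGM, where 18% of 19945 genes were higher and 15.9% lower. Flt1 had 32.0 and 30.2 CPM in the AGM labelled E9.5 and 43.6 CPM in skin, a log2 change of -0.54 ± 0.14 with an adjusted p of 0.019. Without the round 2 AGM library labelled E9.5, Flt1 lost its call (-0.49, adjusted p = 0.0659) and Pecam1 gained one, higher in the AGM (0.66, 0.0289). With the AGM libraries labelled E11.5 in place of those labelled E9.5, the change in Flt1 was -0.02. At E10.5 no member passed, where 11.7% of genes were higher and 12.2% lower, 1 member had an unadjusted p under 0.05, and DESeq2 and limma-voom called none. The block for round called 6 members at E9.5 (Pecam1, Tie1 and Emcn higher, Kdr, Flt1 and Flt4 lower), where 51.3% of all genes were called in either direction, and 4 at E10.5 (Kdr, Tie1, Emcn and Erg, all higher), where 42.6% were. Both counts are close to the share of all genes. Skin is a single library in each of these comparisons.

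The step to E10.5 was not shown to differ between the tissues for any member by edgeR's test of the difference, where 2.63% of genes had a higher step in the AGM and 5.04% a lower one. Unadjusted, 2 members had p under 0.05, and DESeq2 and limma-voom called none. The blocked fit called 4 members, where 25.8% of all genes were called in either direction. The AGM step was higher for Kdr (0.70, adjusted p = 0.000184), Flt4 (0.73, 0.00719) and Flt1 (0.48, 0.0402) and lower for Pecam1 (-0.51, 0.00816). With AGM labelled E11.5 in place of E9.5, the unblocked difference for Kdr was 0.36 with an adjusted p of 0.431.

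The 2 skin sets differed in all 10 members. In ES skin 9 of the 10 members were lower than in E skin and Flt1 was higher, all by edgeR with age as a factor, where 29.5% of 16588 genes were higher and 29.3% lower. Emcn, Tie1 and Erg had 10 ES counts or fewer each and met the low-count filter through E skin, where they are high. Their tests are therefore no separate support. No member's 4 ES values overlapped its 4 E values. The share of all genes without overlap was not counted, so this is a description and no result about the members. The median log2 change of the members was -3.32 beside -0.011 for all genes, and all 10 calls held with each library left out in turn.

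**Figure D4:**
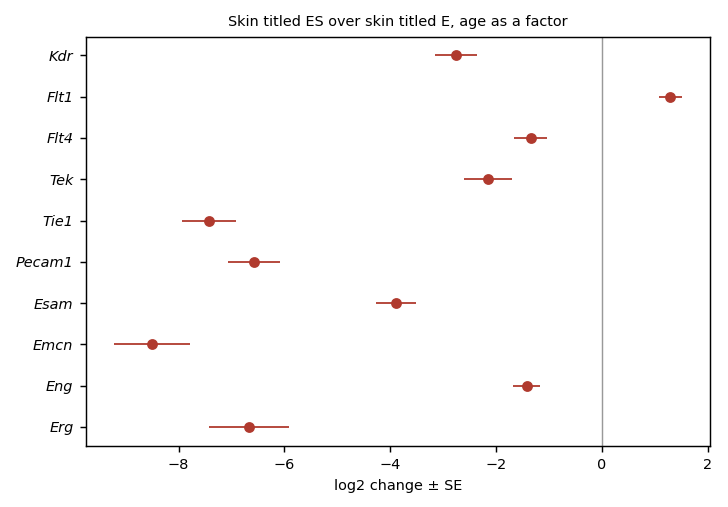
Log2 change (horizontal axis, bars ± SE) of each member in skin titled ES over skin titled E, from an edgeR fit with age as a factor. Flt1 alone lies right of 0, at 1.29, and Emcn, Tie1, Erg and Pecam1 lie furthest to the left.

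Flt1 had 89.8, 75.7, 92.5 and 89.3 CPM in ES skin over the 4 ages in order and 43.6, 35.1, 37.7 and 67.9 CPM in E skin. It averaged 86.8 ± 7.54 CPM in ES skin and 46.1 ± 14.98 CPM in E skin (SD, n = 4 each), a log2 change of 1.29 ± 0.22 with an adjusted p of 0.00383. The ES values varied less among themselves than the E values did. Reads of the soluble and membrane forms of Flt1 are not separated in a count per gene.

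Kdr had 18.4, 9.83, 25.6 and 7.19 CPM in ES skin at the 4 ages in order, against 90.6 to 136 CPM in E skin, a log2 change of -2.75 ± 0.40 (adjusted p = 0.00222). Tek had 6.58, 5.63, 8.86 and 2.85 CPM in ES skin, against 23.4 to 44.5 CPM in E skin, at -2.15 ± 0.45 (0.00806). Flt4 had 10.1, 16.7, 6.35 and 15.5 CPM in ES skin, against 28.5 to 43.0 CPM in E skin, at -1.34 ± 0.31 (0.0123). Kdr and Tek therefore ranked the ES libraries alike and Flt4 ranked them almost in reverse. The libraries with more Kdr, at E9.5 and E12.5, were also the shallower ones, with totals of 8820803 and 6770338 counts against 14044081 and 15440012, and the part of depth in this order was not tested. The ratio of Flt1 to Kdr CPM was 3.62 to 12.4 in ES skin and 0.338 to 0.498 in E skin.

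Eng was the member with the smallest relative loss next to Flt4. It had 11.7, 20.7, 16.1 and 21.1 CPM in ES skin and averaged 17.4 ± 4.44 CPM there, against 60.5 ± 25.02 CPM in E skin (SD, n = 4 each), a log2 change of -1.42 ± 0.25 (adjusted p = 0.00446). Acvrl1, its partner kinase, was called higher in ES skin by 0.82 ± 0.25 (0.0336), while the BMP target Id1 was lower by -3.23 ± 0.23 (0.00034).

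The junction and surface genes, Tie1 and Erg were close to 0 in ES skin. Pecam1 had 24 counts over the 4 ES libraries and 6788 over the 4 E libraries, or 0.389 to 0.739 CPM against 36.9 to 136 CPM, at -6.58 ± 0.49 (adjusted p = 0.000364). Tie1 had 10 counts against 4630, at -7.43 ± 0.51 (0.000324), and Erg 10 against 2960, at -6.67 ± 0.75 (0.00101). Emcn had 2 counts against 2173, and the ratio of its pooled CPM in ES over E skin was 0.00182 with a 95% exact counting interval of 0.000220 to 0.00657. Emcn was at 0 counts in the ES libraries of E10.5 and E14.5, where 3 counts would have been 0.214 and 0.194 CPM. Esam was the best read of this group, with 0.886 to 1.92 CPM in ES skin against 18.8 to 32.1 CPM in E skin, at -3.88 ± 0.38 (0.000664).

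Other endothelial genes were also mostly lower in ES skin. Of 24 further surface and junction genes tested, 17 were lower in ES skin and 2 higher (Sele and Emp1). Of all genes, 29.3% were lower and 29.5% higher in this comparison, to which the list counts below also belong. Robo4, Cldn5, Icam2 and Aplnr were the most reduced, and Aplnr, a receptor of developing veins, had 0.0648 to 0.295 CPM in ES skin against 51.2 to 75.6 CPM in E skin. Cdh5, which encodes VE-cadherin, the defining endothelial junction protein, had 2.49, 4.06, 3.54 and 8.42 CPM in ES skin against 95.3, 86.7, 177 and 200 CPM in E skin. Among 16 transcription factors, 10 were lower and 1, Elk3, higher, and Sox18 had no counts in any ES library against 14.9 to 25.2 CPM in E skin. Calcrl, Clec14a, Ecscr, Cd34 and Stab1 did not pass, and neither did Sox7, which had 12.2 to 28.1 CPM in ES skin against 14.8 to 26.6 CPM in E skin. Cdh5, Sox7, Acvrl1 and the genes that did not pass are named after their values were seen. Summed macrophage markers were 163 to 442 CPM in ES skin against 6.97 to 263 CPM in E skin. Of these 9 markers, 2 were called higher in ES skin, 1 lower, and 6 did not pass. The sum of 8 keratinocyte and surface ectoderm markers was 16.3 to 37.8 CPM against 47.1 to 3259 CPM. Their part in the difference was not tested, and title and sequencing project cannot be told apart.

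Of 11 VEGF and angiopoietin ligands and co-receptors, 4 were higher and 1 lower in ES than in E skin, where 29.5% of all genes were higher and 29.3% lower, with a median log2 change of 0.57 for the list. Vegfa, the main ligand of Kdr and Flt1, had 153 to 188 CPM in ES skin against 61.1 to 177 CPM in E skin, at 1.32 ± 0.29 (adjusted p = 0.00943). Vegfb, a ligand of Flt1, was lower by -1.74 ± 0.19 (0.000873). With labelled age in the AGM, where Flt1, Flt4 and Tek were higher, this list had 1 higher and 7 lower of 11 at labelled E11.5 than E9.5, where 21.1% of all genes were higher and 24% lower. The Tek ligand Angpt1 was lower by -1.58 ± 0.14 (9.4e-05), with 12.3 and 15.1 CPM at labelled E11.5 against 42.6 and 47.7 CPM at labelled E9.5. Angpt2, the other main angiopoietin, was lower by -1.34 ± 0.18 (0.000726). In E skin at E14.5 against E12.5, Angpt1 was lower by -2.11 ± 0.21 (0.000219) and Vegfa higher by 1.43 ± 0.12 (0.000115).

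Of the 24 surface and junction genes, 4 were higher and 8 lower in AGM labelled E11.5 than E9.5, near the 21.1% and 24% of all genes called there. In E skin 8 were higher and 1 lower at E12.5 than E10.5, where 17.4% of all genes were higher and 12.7% lower, and 8 were higher and none lower at E14.5 than E12.5, where 14.3% were higher and 13.2% lower. Of 17 transcription factors, 2 were higher and 8 lower between AGM labelled E11.5 and E9.5, beside the same 21.1% and 24% of all genes, and Fli1, the ETS factor closest to Erg, was lower by -1.44 ± 0.11 (adjusted p = 6.38e-05) while Erg was at -0.02. The list made for endoglin's receptor complex also holds ligands, SMAD genes and the targets Id1 and Id3. Of its genes, 6 of 10 tested were lower and none higher between AGM labelled E11.5 and E9.5, with Tgfbr2 at -1.39 ± 0.16 (0.000349). Of 5 lymphatic genes, 2 were higher and 1 lower in skin at E14.5 than E12.5, led by Lyve1, a lymphatic receptor that macrophages also carry, with 65.5 CPM at E14.5 and 14.2 CPM at E12.5.

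Across the 10 libraries of AGM and E skin, 9 members correlated positively with the other members and Emcn negatively. The mean standardized level of the members was highest in E skin at E14.5 (1.34) and lowest in E skin at E10.5 (-0.79). In the AGM libraries it was -0.58 to 0.42. The correlation of log2 CPM with the mean standardized level of the other 9 was 0.873 for Esam, 0.804 for Eng and 0.762 for Kdr, 0.465 for Tek and -0.692 for Emcn. Outside the members, the genes most like their mean among 11751 with at least 5 CPM on average were Gorasp1, Klf16, Chpf, Adam15, Chst12, Tmem109, Arhgap27, Kcnk6, Sh2b3 and Ptpn14, with r of 0.961 for Gorasp1 down to 0.927 for Ptpn14 and a median of -0.122 over all compared genes. Over the 4 E skin libraries alone r for Gorasp1 was 0.980 and over the 6 AGM libraries 0.888. The points share tissues, rounds and depth, the top ranks are the extremes of many genes over 10 points, and these values are a description only.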

How the data were processed

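PolyA-selected RNA from frozen tissue was sequenced, per the labels' protocols. The values are raw counts per gene as deposited by the authors, made with featureCounts 1.6.0, STAR 2.5.0a and Trimmomatic 0.36 among the tools listed, per the submitters' processing notes, which also list the GRCm38 (mm10) build and DESeq2 1.20.0 but give no roles or settings. All 14 columns were used. Second-round AGM columns carry only numbers, which were matched to ages through the first round's labels, an assumption under which rounds of 1 age correlated best (r of 0.993 to 0.995). The round number was taken to pair AGM libraries, since round differences correlated between ages (r = 0.605, 0.429 and 0.523 over 15747 genes).

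From these counts, CPM, RPKM (exon lengths from a GRCm38 annotation) and exact 95% Poisson intervals were computed, which cover counting error only, and a count of 0 allows up to 3 counts. Comparisons used edgeR 4.0.16 (quasi-likelihood test, TMM scaling, filterByExpr, Benjamini-Hochberg adjusted p under 0.05) in R 4.3.3. Separate fits held the 6 AGM libraries, these with 4 E skin libraries, the 8 skin libraries with age and title, and the 4 E skin libraries against day. The SE is the log2 change divided by the square root of F. The fits had 2 or 3 residual degrees of freedom. Alternatives used limma 3.58.1 and DESeq2 1.42.0. The scripts were tested on simulated counts. All 10 members are named, other lists by counts with up to 4 largest called changes, and likeness genes by the 10 highest correlations. The members and lists were chosen with earlier results of these data known.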

Additional observations from a re-analysis of the deposited data

How the results depend on the processing

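Of 1700 recomputed member results, 1514 kept their direction and side of the threshold, 80 moved with no call involved, 58 gained a call, 44 lost one and 4 turned round. Counts of members called are given in the order of AGM E10.5 over E9.5, E11.5 over E10.5 and E11.5 over E9.5, E skin E10.5 over E9.5, E12.5 over E10.5 and E14.5 over E12.5, AGM over skin at E9.5 and E10.5, and the difference of steps, where the main values were 0, 1, 5, 0, 2, 3, 1, 0 and 0. AGM round as a replicate block gave 3, 4, 8, 3, 5, 9, 6, 4 and 4. With all 14 libraries and titles E and ES as duplicates the count was 0 in all of them, with a biological coefficient of variation of 81.5%. With title and round as a block over all 14 libraries it was 0 for AGM E11.5 over E10.5 and over E9.5 and for skin E12.5 over E10.5 and E14.5 over E12.5, and 6 for AGM over skin at both ages. In that fit each skin age stood midway between E and ES skin, so its skin values are not those of E skin alone. Against this other reference, Tek turned to -0.16 for skin E14.5 over E12.5. Esam turned to 1.75 and 1.35 for AGM over skin at E9.5 and E10.5, and Pecam1 to 3.13 at E10.5. With no low-count filter the count was 2 for AGM E11.5 over E10.5, 6 for E11.5 over E9.5, 1, 3 and 4 for the skin steps in order, 2 and 1 for AGM over skin at E9.5 and E10.5, 1 for the difference of steps and 1 for the skin slope, whose count was 2 by DESeq2. For AGM E11.5 over E9.5, size factors gave 3, and DESeq2, limma-voom and leaving out globin and mitochondrially encoded genes gave 4 each. Taking AGM labelled E11.5 in place of E9.5, chosen after seeing the data, gave 0 over skin at E9.5. Leaving out each library gave 1 to 2 for AGM E11.5 over E10.5, 2 to 5 for E11.5 over E9.5, and the main count elsewhere (for AGM over skin at E9.5 without AGM E9.5 round 2, the 1 member was Pecam1 in place of Flt1), with 10 for ES over E skin in each case. Without a low-count filter the median of all genes in ES over E skin moved to -0.40. Each skin age is 1 library, tissue and project are confounded, and Emcn, Tie1 and Erg in ES skin rest on 10 counts or fewer each.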
